A study of Caenorhabditis elegans with 2 samples.

Results

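The coding exon peaks described here are 5433 weak LIN-35 ChIP-seq peaks whose summits lie in protein-coding sequence of Caenorhabditis elegans. They were taken from the relaxed peak list of both replicates pooled, which holds 30000 peaks. A peak qualified when it overlapped no peak of the reproducible list (6712 peaks passing the authors' test of the irreproducible discovery rate, IDR) by 1 bp or more. Its summit also had to lie in a coding segment of a protein-coding gene, outside the window from 500 bp upstream to 200 bp downstream of every protein-coding transcript start. The qualifying peaks were 23.9% (95% Wilson interval 23.3 to 24.5%) of the 22738 pooled peaks that overlapped no reproducible peak, called relaxed-only peaks below. They were chosen by position and by missing the reproducible list, whose weakest signal (45.9) is above that of all of them, so their signal and their number are descriptions and were not tested.

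ChIP was done on entire L1 larvae of strain YL398, both sexes mixed, in 2 biological replicates that form 1 group. The strain carries the unc-119(ed3) mutation on chromosome III and the insertion vrIs55. There LIN-35 tagged with GFP and FLAG, followed by the lin-35 3' UTR, is expressed from the ges-1 promoter; ges-1 encodes an esterase of the gut. The insertion also carries unc-119(+) as a marker. The labels give lin-35 as the antibody target and in another place describe immunoprecipitation of the eGFP fusion, so which protein pools were recovered is not settled by them. The ges-1 promoter is active in the intestine, whereas the chromatin came from entire animals, and no other genotype was analysed. The labels give fragments of 150 to 350 bp. The read depth of the libraries is unknown, since the files give peaks and no read counts.

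LIN-35 belongs to the retinoblastoma family of pocket proteins. Within the DREAM complex it joins E2F and DP proteins and the MuvB subunits, which dock on promoters of cell cycle and germ line genes and hold their transcription down in larval tissue. Sites of this complex are known chiefly from promoters, often at an E2F element, at a cell cycle homology region (CHR) or at both. Coding exons are not where the complex is best known to act.

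The sequences under the 6 strongest coding exon peaks show what these summits sit on. Each stretch holds 30 bases around the summit, on the coding strand, from the RefSeq genome of WBcel235 (the assembly that ce11 names). Capitals mark the codon under the summit.
cal-1: gacggggaaattGATtacgaagagttcgta
F26F12.3: caatagttcaatgTTGgcaacttctgcgcc
pola-1: tcgatgggtgcggtCATtcaaatgtgattc
Y6E2A.4: tgtgctcttcgatAAAtacgacgatgattt
mnk-1: ccgaatattgttCAActtcttgactggttt
ZK1193.2: ctcaatccgcggGCAacagtttataatccg
The first lies in the gene of a calmodulin-related protein, the third in the gene of the catalytic subunit of DNA polymerase alpha and the fifth in the gene of a MAP kinase interacting kinase. The stretches lie at V:12515141-12515170, V:5841635-5841664, III:11149614-11149643, V:15712561-15712590, II:10546117-10546146 and X:423957-423986. The codons are number 169 in cal-1, 485 in F26F12.3, 1252 in pola-1, 444 in Y6E2A.4, 264 in mnk-1 and 128 in ZK1193.2, counted in the transcript with the longest coding sequence. None of these 6 stretches leaves its coding segment.

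Few coding exon peaks had an E2F spelling near the summit, and 5 of the strongest of those are shown with it. The search covered both strands for the spelling TTCCCGC, the spelling TTGGCGC, the spelling TTCGCGC and the spelling TTGCCGC. Capitals mark the match, which stands reverse-complemented where the letters begin with GCG.
coq-6: tccagctattgTTGCCGCaagagcttttgg
T13B5.9: tcaggtgggtggGCGGGAAtttgggtagaa
Y16B4A.2: cttatcaacaacTTGCCGCgccagctactc
clec-264: aacgatgaaaccGCGGGAAagttgaaaatg
egl-27: cgtatgtgataGCGGCAAtatgcggattta
They lie at V:9338744-9338773, II:1101580-1101609, X:14769192-14769221, V:20847963-20847992 and II:6836733-6836762, again on the strand of the gene. The match was centred 53 bp from the summit in coq-6, 35 bp in T13B5.9, 18 bp in Y16B4A.2, 63 bp in clec-264 and 31 bp in egl-27. All 7 bases of the match were coding in coq-6, Y16B4A.2, clec-264 and egl-27, and 0 of them were in T13B5.9, where the match falls outside the exon.

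Coding exon peaks were weak. Their pooled signal, which is the enrichment the authors' caller gave each peak, ran from 7.31 to 45.7 with a median of 10.9 (quartiles 8.92 and 14.7), against medians of 15.03 in the 4921 relaxed-only promoter peaks and 11.4 in the 6144 relaxed-only intron peaks. Of the coding exon peaks, 607 (11.2%) had a deposited q-value of 0.05 or less, against 36.0% of the promoter peaks and 20.2% of the intron peaks; the share over all relaxed-only peaks was 24.9%. The median −log10 q-value was 0.359, so the typical member of this class fell far short of that threshold. All but a few had the same width of 344 bp, 5431 of 5433. A median of 77.6% of the bases of a peak were coding, and 1042 peaks (19.2%) were coding throughout.

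The thresholds of the rule cut through a continuous range. The strongest coding exon peaks, in cal-1, F26F12.3 and pola-1, had signals of 45.7, 45.5 and 45.1, and the weakest reproducible peaks with a summit in the same kind of sequence had 46.1, 46.1 and 46.2. The reproducible list held 95 such summits. At the start-site rule, 133 coding exon peaks had a summit in the 50 bp just past the lower edge of a window, and 152 relaxed-only coding summits in the 50 bp just inside it were left out. In all, 1056 relaxed-only coding summits fell inside the windows.

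The share of summits in coding exons grew as peaks became weaker. In the pooled list it was 0.300% among the 3000 strongest peaks, 2.00% among the next 3000, 12.4% at ranks 9001 to 12000 and 29.6% among the last 3000. Coding sequence that meets the position rule makes up 20.8% of the genome (20.9 Mb), and 21.5% of the part of it where a peak of this width would touch no reproducible peak. Coding exon summits were thus less frequent than this coverage among strong peaks and more frequent among weak ones, with the crossing near rank 15000. The replicate 1 list ran from 0.300 to 28.6% over its 10 bins. The replicate 2 list reached 18.97% at ranks 6001 to 9000 and 26.7% at ranks 21001 to 24000.

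**Figure D1:**
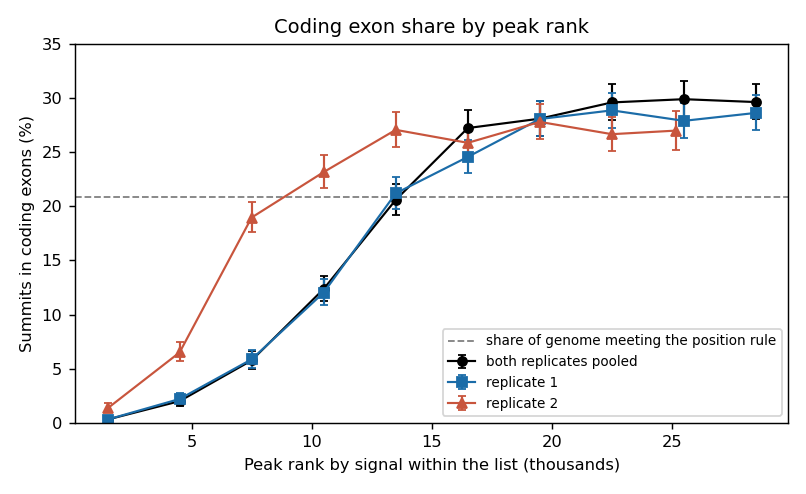
Share of summits in coding exons outside start windows (vertical axis, %) against peak rank by signal (horizontal axis, in units of 1000) in bins of 3000 peaks, for the pooled list and both replicate lists; bars are 95% Wilson intervals and the dashed line is the share of the genome that meets the position rule. All 3 lists begin near 0, at 0.300, 0.300 and 1.33%, and end above the line.

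Most coding exon peaks were seen in replicate 1 and a minority in replicate 2. A replicate 1 peak overlapped 4483 of them (82.5%; 86.7% over all relaxed-only peaks) and a replicate 2 peak overlapped 2085 (38.4%; 41.7% over all relaxed-only peaks). Both replicates had a peak at 1563 coding exon peaks (28.8%), replicate 1 alone at 2920, replicate 2 alone at 522 and neither at 428. The summit lay inside a replicate 1 peak in 78.0% of them, while that list covered 8.34% of eligible coding sequence, and inside a replicate 2 peak in 28.1%, while that list covered 6.91%. The pooled list was made from both libraries, so agreement with either is not independent of it. In replicate 2 the list is shorter, with 26341 peaks against 30000 in replicate 1, and its peaks are narrower, with a median of 280 bp against 340 bp.

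Set beside the other relaxed-only classes, coding exon peaks were less often found in replicate 1. Their 82.5% compared with 90.3% for promoter peaks and 85.8% for intron peaks (Fisher's exact test, two-sided, Benjamini-Hochberg adjusted over 8 comparisons, p = 1.73e-30 and p = 2.3e-06). In replicate 2 their 38.4% compared with 48.0% for promoter peaks and 37.99% for intron peaks (the same exact test, adjusted p = 1.04e-22 and p = 0.769). These p-values take peaks of 1 pair of libraries as units and do not measure variation between cultures. Pooled signal differed between the classes, so the comparison was also made within 4 equal bins of pooled signal, a choice made after seeing the data. The differences from promoter and intron peaks in replicate 1 were then −1.94 and −1.82 percentage points (Mantel-Haenszel chi-square test, adjusted p = 0.00697 and p = 0.00723). In replicate 2 the difference from promoter peaks was −1.55 points, and that from intron peaks was 3.16 points, higher in coding exon peaks (the same chi-square test, adjusted p = 0.139 and p = 0.00101).

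**Figure D2:**
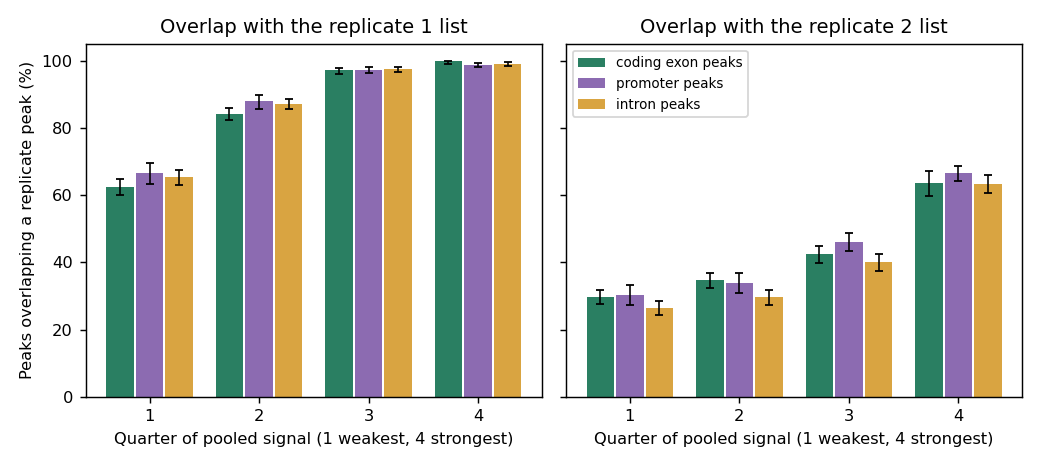
Share of coding exon, promoter and intron relaxed-only peaks (vertical axis, %) that overlap a peak of replicate 1 (left) or replicate 2 (right), by bin of pooled signal (1 weakest, 4 strongest); bars show 95% Wilson intervals, which cover counting error only. Coding exon peaks overlapped a replicate 2 peak in 29.6, 34.7, 42.5 and 63.5% from the weakest to the strongest bin, against 26.3, 29.6, 39.97 and 63.3% of intron peaks.

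Summits agreed closely with replicate 1 and loosely with replicate 2. For coding exon peaks that overlapped a replicate peak, the distance to the nearest summit of that replicate list was taken. Its median was 6 bp in replicate 1 and 71 bp in replicate 2. The next shares are over all 5433 coding exon peaks, with or without an overlapping replicate peak. A replicate 1 summit lay within 50 bp of 67.1% of all 5433 (73.3% over all relaxed-only peaks). The share was 78.0% in promoter and 72.0% in intron peaks (Fisher's exact test, adjusted p = 3.41e-34 and p = 1.97e-08). A replicate 2 summit lay within 50 bp of 15.2% of all 5433 (17.3% over all relaxed-only peaks). The share was 21.6% in promoter and 15.1% in intron peaks (Fisher's exact test, adjusted p = 7.32e-17 and p = 0.917). Within the 4 bins of pooled signal the replicate 2 differences were −0.964 points from promoter and 1.68 points from intron peaks (Mantel-Haenszel chi-square test, adjusted p = 0.219 and p = 0.0153), so the first no longer passed and the second did. Across the 1563 coding exon peaks with a peak in both replicates, replicate 1 and replicate 2 signal had a Spearman correlation of 0.215. Pooled signal correlated with replicate 1 at 0.748 and with replicate 2 at 0.279. These are correlations across peaks that share libraries, given as a description. Some replicate peaks served several coding exon peaks: 260 shared a replicate 1 partner with another and 233 shared a replicate 2 partner, and 535 coding exon peaks (9.85%) overlapped one another.

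The 15 strongest coding exon peaks fell in genes of varied function. The peak in cal-1 had a signal of 45.7 in the pooled list, 36.9 in replicate 1 and 7.59 in replicate 2. Signals are scaled within a list, so the replicate values cannot be set against each other in size. The peak in pola-1 had 45.1, 36.7 and 5.18 in the same lists, and that in mnk-1 had 45.1, 32.2 and 11.4, so the strongest value in replicate 2 among the first 6 was in mnk-1. The others of the first 6 were in F26F12.3, Y6E2A.4 and ZK1193.2, and below them were those in ifc-2 and ifd-2, which encode intestinal intermediate filament proteins. The peak in ifc-2 had 45.01, 36.9 and 8.50, and that in ifd-2 had 44.7, 35.9 and 5.51. The rest of the 15 were in C45B11.6, ugt-18 (a glucuronosyltransferase family gene), aagr-1 (an acid alpha-glucosidase related gene), aco-2 (mitochondrial aconitase), F45D3.3, F47E1.2 and nadk-2 (an NAD kinase). All 15 overlapped a replicate 1 peak, ranked 6533 to 8153 in that list. The peak in aco-2, with 44.1 pooled and 39.7 in replicate 1, overlapped no replicate 2 peak; the other 14 did.

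Coding exon peaks were spread over 3762 of 19973 protein-coding genes, or 18.8%. There were 2701 genes with 1 peak, 708 with 2, 214 with 3, 84 with 4 and 55 with 5 or more. The 1061 genes with at least 2 peaks held 2732 of them, about as many as the single-peak genes together. Genes with a peak had more eligible coding sequence, a median of 1244.5 bp against 742 bp in genes without one. Over all genes the density was 26.0 peaks per 100 kb of eligible coding sequence.

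The genes with the most coding exon peaks were long ones. lrp-1, a megalin-related receptor gene of the epidermis, held 16, of which 14 overlapped a replicate 1 peak and 5 a replicate 2 peak; its 14.2 kb of eligible sequence gave 113 per 100 kb. ret-1, the reticulon gene, held 13 (8 with a replicate 1 and 6 with a replicate 2 peak), and atg-2, an autophagy gene, held 11 (11 and 3). vab-10, the spectraplakin gene, also held 11, but over 22.4 kb, which gave 49.2 per 100 kb, and 1 of its peaks had a replicate 2 partner. wnk-1, a kinase gene, held 10, and 7 of them overlapped a replicate 2 peak. F56C9.10 held 8 in 2.98 kb, which at 268 per 100 kb was the densest of the 10. The remaining 4 were sma-9 and let-805 with 8 each, and lin-59 and srap-1 with 7 each. Signals within these genes were modest: 8.63 to 23.2 in lrp-1 and 7.89 to 20.8 in ret-1. In the replicate 2 list alone, lrp-1 held 8 coding exon peaks, ret-1 6, atg-2 3, vab-10 5, wnk-1 8 and F56C9.10 4. There sma-9 also held 4, lin-59 and srap-1 held 1 each, and let-805 held 10, more than lrp-1, so both the counts and their order depend on which library is read. In the replicate 1 list alone ret-1 held 8 and the other 9 genes held 6 to 13.

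**Figure D3:**
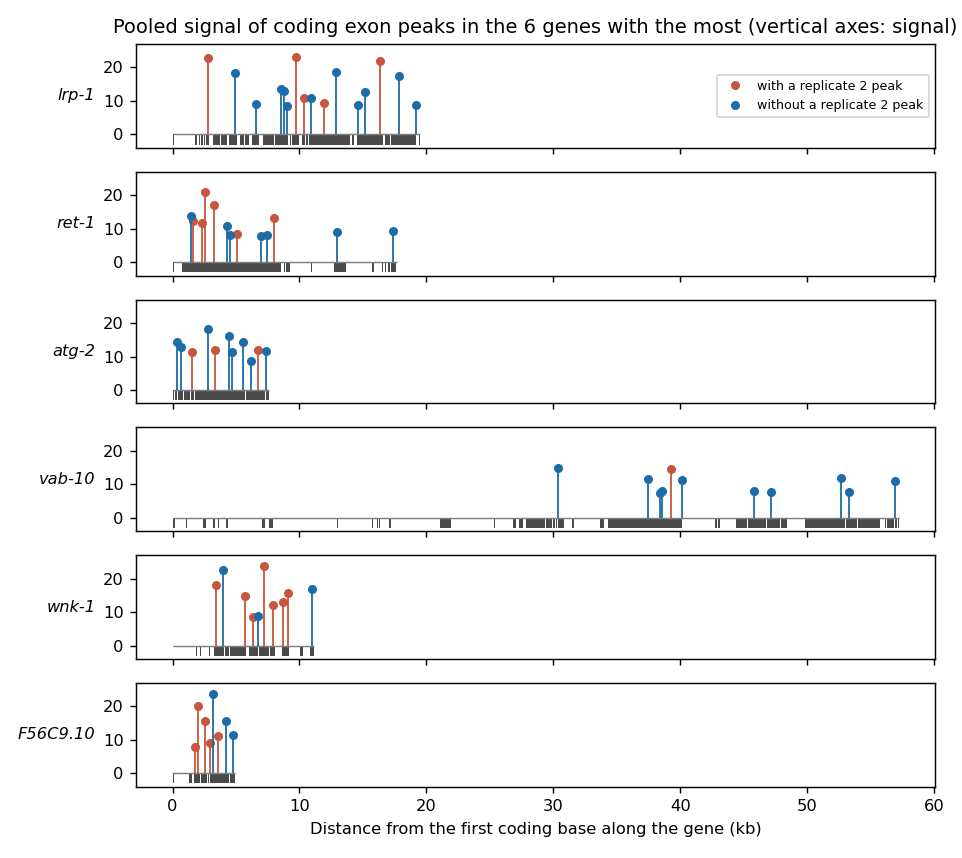
Summits of coding exon peaks along the 6 genes with the most, by distance from the first coding base (horizontal axis, kb); stem height is pooled signal, dark blocks are coding segments of all transcripts merged, and colour tells whether a replicate 2 peak overlaps. No stem reaches 25, and the summits are scattered along each gene; the 16 in lrp-1 range from 8.63 to 23.2.

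Genes with a reproducible peak in their start window carried more coding exon peaks. Of 3959 such genes (19.8% of all), 1521 (38.4%) held at least 1, against 2241 (13.99%) of the 16014 genes without. Per 100 kb of eligible coding sequence the densities were 48.4 and 19.2, a ratio of 2.52. The difference was seen in each of 4 equal bins of genes by eligible length, with 62.4 against 23.2 per 100 kb in the shortest and 43.4 against 19.997 in the longest. The share of these peaks overlapping a replicate 2 peak was 39.6% in genes with a reproducible promoter peak and 37.4% in genes without. With coding exon peaks taken from the replicate 2 list alone the ratio fell to 1.56, and from the replicate 1 list alone it was 2.69. Coding exon peaks also lay nearer to reproducible summits than the sequence available to them: 16.9% were within 1000 bp of one, against 8.07% of eligible bases clear of reproducible peaks. No test was made of these values.

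By gene list, heat shock protein genes were the most densely marked. Of 51 genes for heat shock proteins and DNAJ co-chaperones, which fold other proteins, 24 held a coding exon peak (47.1%, against 18.8% of all genes), and the density was 92.5 per 100 kb against 26.0 over all genes. Their 47 peaks overlapped a replicate 1 peak in 45 cases and a replicate 2 peak in 23. In the replicate 2 list alone 17 of the 51 genes held one (33.3%), against 20.6% of all genes. A reproducible promoter peak stood at 23 of the 51 genes, and all genes with such a peak had 48.4 per 100 kb. The part of promoter peaks in this density was not tested. hsp-110 held 6, hsp-1 held 5, hsp-90 and hsp-6 held 4 each and hsp-60 held 3. Strong summits of these genes are shown, with capitals on the codon under the summit.
hsp-90, codon 145: tccaagaacaacgatGATgacagctatcaa
hsp-90, codon 359: cttcatcaagggaGTCgtcgattctgagga
hsp-60, codon 102: tgaggaggctggaGACggaaccacctgcgc
hsp-1, codon 91: gacatgaagcattggCCAttcaaggtcatc
The stretches lie at V:14686628-14686657, V:14687320-14687349, III:1620198-1620227 and IV:17279270-17279299, all on the plus strand. The first hsp-90 peak had a signal of 35.03 in the pooled list, 34.6 in replicate 1 and 4.69 in replicate 2. The second had 33.0, 26.5 and 4.37. The hsp-60 peak had 30.4 pooled and 28.0 in replicate 1, with no replicate 2 peak, and the hsp-1 peak had 30.1, 24.5 and 3.78. The remaining hsp-90 peaks were weaker, at 12.02 and 9.48 pooled. The hsp-110 peaks ran from 7.403 to 22.1, and 2 replicate 1 peaks each served 2 of its 6. Its 4 replicate 2 overlaps rest on 2 replicate 2 peaks, 1 of which served 3.

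Translation factor and ribosomal protein genes followed in density. Translation factor genes had 70.1 peaks per 100 kb (26.0 over all genes), in 15 of 40 genes (37.5%, against 18.8% of all genes). The list was led by eef-1A.1 (an elongation factor), whose 3 peaks had pooled signals of 16.4, 15.3 and 18.04. Ribosomal protein genes had 59.0 per 100 kb, in 10 of 78 genes (12.8%), with a median of 214.5 eligible bases per gene. Of these genes 69 had a reproducible promoter peak, as did 30 of the 40 translation factor genes. Over all genes with such a peak the density was 48.4 per 100 kb. rpl-3 held 2, of 10.1 and 19.3 pooled. Aminoacyl-tRNA synthetase genes, which charge tRNAs, held peaks in 16 of 32 genes (50%) at 34.1 per 100 kb, led by dars-1 with 2 of 16.0 and 23.7. A reproducible promoter peak stood at 16 of the 32 synthetase genes. With windows of 1000 bp upstream of starts, the ribosomal count became 5 of 78 and the synthetase count 9 of 32, and 16.97% of all genes held a peak. The synthetase count was 6 of 32 (18.75%) in the replicate 2 list alone, where 20.6% of all genes held a coding exon peak. It was 3 of 32 among the 50% of the peaks with the highest signal, where 10.6% of all genes held one.

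Intestinal genes, the tissue of the driving promoter, had 13 peaks in 11 of 28 genes (39.3%, against 18.8% of all genes), at 43.8 per 100 kb (26.0 over all genes). Of the 28 genes 15 had a reproducible promoter peak, and all genes with such a peak had 48.4 per 100 kb. pgp-1, a transporter gene, held 3, of 9.63, 21.6 and 11.3. Of the 13 intestinal peaks, 8 (61.5%) overlapped a replicate 2 peak, against 38.4% of all coding exon peaks. This share varied between small lists. It was 63.6% of 11 peaks for DREAM and synMuv B genes, 26.3% of 19 for DNA replication genes and 22.2% of 18 for germ line genes. Nuclear hormone receptor genes held 100 peaks in 70 of 269 genes (26.0%), at 36.6 per 100 kb. Among them nhr-21 held 4, with pooled signals of 34.99, 9.36, 20.3 and 9.36, and each overlapped a peak in both replicates. These 4 lie on 2 replicate 1 peaks and 2 replicate 2 peaks.

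Lists tied to the known roles of DREAM had densities somewhat above the 26.0 of all genes and higher shares of genes with a peak than the 18.8% of all genes. DNA replication genes had 33.0 per 100 kb, in 13 of 37 genes (35.1%), and pola-1 led with 3, of 9.03, 7.66 and 45.1. P granule and germ line genes had 30.5 per 100 kb, in 13 of 35 genes (37.1%), led by nos-3 (a Nanos family RNA regulator) with 2, of 20.01 and 10.1. Genes of DREAM and of the synMuv B class, which includes lin-35 itself, had 28.4 per 100 kb, in 6 of 17 genes (35.3%). In the replicate 2 list alone 10 of these 17 held one, where 20.6% of all genes did. mep-1, a zinc finger protein gene, led with 3, of 10.9, 12.8 and 11.9. Of the 37 replication genes 31 had a reproducible promoter peak, as did 7 of the 35 germ line genes and 9 of the 17 DREAM and synMuv B genes. Over all genes with such a peak the density was 48.4 per 100 kb, above that of each of these lists. Their genes had long eligible sequence, with medians of 1409 bp (replication), 1769 bp (germ line) and 1686 bp (DREAM and synMuv B). The median was 742 bp in genes without a coding exon peak. The part of length and of promoter peaks in these values was not tested.

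Several large families and tissue lists lay below the density of all genes. Muscle genes had 4.03 per 100 kb (2 of 26 genes; unc-60, a cofilin gene, at 8.94) and chemoreceptor genes 4.98 (44 of 1269; srh-276 led with 13.2 and 16.9). F-box genes had 8.87 (23 of 322; fbxa-66 with 11.9 and 9.83), histone genes 10.7 (1 of 72, his-24, a linker histone, at 11.7) and neuronal genes 10.8 (5 of 28; sng-1, synaptogyrin, at 18.1). Collagen genes of the cuticle had 13.04 (18 of 175; col-80 with 10.1 and 12.4), C-type lectin genes 14.8 (31 of 240; clec-264 at 36.3), epidermal genes 15.8 (5 of 19; dlg-1 with 16.0 and 11.7) and genes of large cytoskeletal and matrix proteins 16.0 (14 of 27; lrp-1 led). By share of genes with a peak, the large-protein list (51.9%) and the epidermal list (26.3%) were above the 18.8% of all genes. Genes of the large-protein list had a median of 11919 eligible bases. The 31 major sperm protein genes and the 6 vitellogenin genes held 0. In the replicate 2 list alone 20.6% of all genes held a coding exon peak. There the chemoreceptor count was 141 of 1269 (11.1%), the C-type lectin count 47 of 240 (19.6%) and the vitellogenin count 1 of 6 (16.7%). Shares above that of all genes were the muscle count, 9 of 26 (34.6%), and the neuronal count, 7 of 28 (25%). The epidermal count, 8 of 19 (42.1%), and the large-protein count, 24 of 27 (88.9%), were also above it. In the replicate 1 list alone 18.3% of all genes held one. There the C-type lectin count was 19 of 240, the neuronal count 3 of 28, the muscle count 3 of 26 and the histone count 2 of 72. These counts, and for muscle and neuronal genes the side of the all-gene share, thus depend on the library. The lists received no test.

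**Figure D4:**
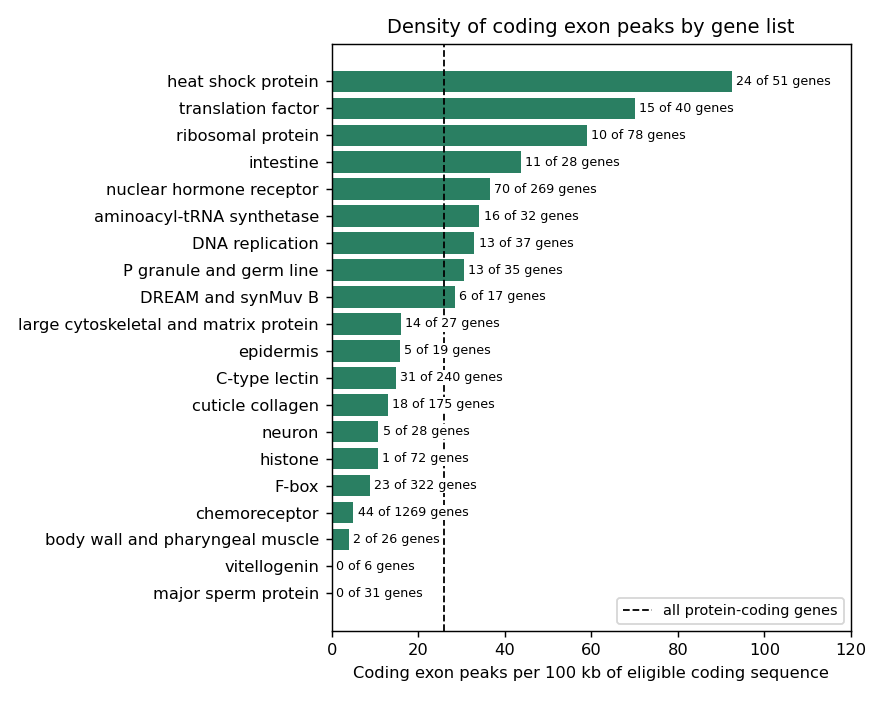
Coding exon peaks per 100 kb of eligible coding sequence (horizontal axis) in each of 20 gene lists, with the number of genes that hold one; the dashed line is the density over all protein-coding genes, 26.0. Heat shock protein genes stand at 92.5 and chemoreceptor genes at 4.98, while 2 lists stand at 0.

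The genes whose parts make up the transgene held no coding exon peak. ges-1 and lin-35 had 0 peaks of any list within 1000 bp. unc-119 had 7 pooled peaks within that distance, the highest with a signal of 168, and the only coding summit among them outside the start windows overlapped a reproducible peak and so was not a member.

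Along the coding sequence the summits had nearly the spread of the sequence available. The median position was 55.6% of the way from the first to the last coding base, against 54.5% for eligible bases. Of 10 equal parts of the coding sequence, the last held 11.7% of summits against 10.4% of eligible bases, and the fifth held 9.72% against 11.2%. Internal coding segments held 79.9% of summits (80.5% of eligible bases), last segments 16.8% (15.8%), first segments 3.02% (3.10%) and single-segment genes 0.278% (0.566%). The median segment under a summit was 297 bp long, against 273 bp for eligible bases. Soft-masked repeats underlay 5.47% of summits and 7.89% of eligible bases. Positions refer to the longest coding transcript of each gene, which left out 43 coding exon peaks.

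**Figure D5:**
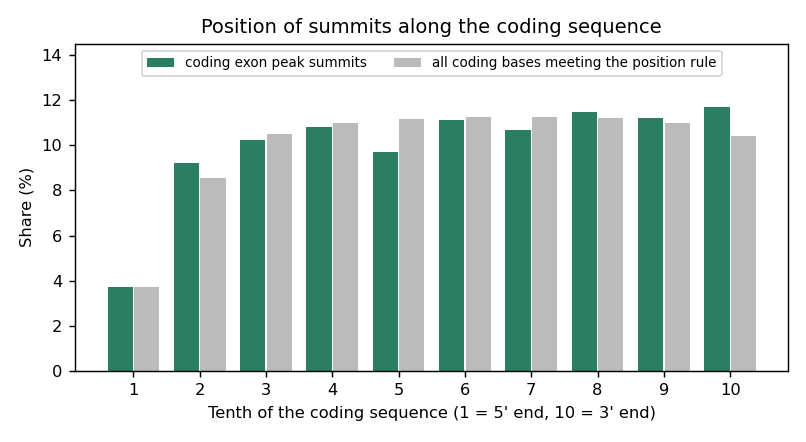
Share of coding exon peak summits and of all eligible coding bases (vertical axis, %) in each of 10 equal parts of the coding sequence from the 5' end (1) to the 3' end (10). Both shares are near 3.71% in the first part, where start windows remove most bases, and summits exceed eligible bases most in the last part, 11.7 against 10.4%.

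Chromosome III carried the most coding exon peaks for its coding length. Its 1140 peaks amounted to 37.4 per 100 kb of eligible coding sequence, against 28.7 on II, 27.3 on I, 23.6 on X, 22.3 on IV and 19.9 on V. All relaxed-only peaks together had their highest and lowest densities per 100 kb of chromosome on the same chromosomes, 30.1 on III and 18.9 on V. On chromosome III the outer 25% at each end had 42.7 per 100 kb and the part between 33.98, while on V they had 18.03 and 21.3. Replicate 2 overlapped 34.7% of the coding exon peaks on I, the lowest, and 41.4% on X, the highest.

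Of 6 motifs, of DREAM and of common worm promoter elements, 1 differed in frequency between these summits and nearby coding sequence, and it was lower at the summit. Each summit was compared with a coding position 500 bp away, in windows of 75 bp either side, for 3507 coding exon peaks; 1926 had no such position. That position only had to be coding. It could lie in a start window, under a reproducible peak or under another coding exon peak, so it is not sequence known to be free of peaks. An E2F spelling was present at 3.93% of summits and 3.22% of positions beside them (exact McNemar test, Benjamini-Hochberg adjusted over 6 motifs, p = 0.356). A CHR spelling, TTTGAA or TTCGAA (its own reverse complement), was present at 29.7% of summits and 32.6% of positions beside them, so it was less frequent at the summit, in 681 pairs with a match only at the summit and 784 with one only beside it (exact McNemar test, adjusted p = 0.0461). The GATA spelling TGATAA stood at 12.9 and 12.8%, GAGAGA at 8.78 and 8.50%, CCACC at 21.6 and 20.6%, and GGAGGA at 10.4 and 10.2% (adjusted p from 0.598 to 0.972). The CHR difference did not pass in windows of 150 bp, with a position 1000 bp away or among the 50% of the peaks with the highest signal. The test takes each peak as a separate pair. Of all coding exon peaks, however, 2732 lay in genes with 2 or more and 535 overlapped one another, so pairs can share sequence. The p-values do not account for this.

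The 6712 reproducible peaks differed in the same spellings. An E2F spelling was present in 4.38% of all coding exon peaks, against 12.7% of reproducible peaks, 6.32% of relaxed-only promoter peaks and 9.33% of relaxed-only intron peaks. GAGAGA was present in 8.49% of coding exon peaks against 30.2% of reproducible ones, TGATAA in 13.5% against 23.3% and CHR in 29.7% against 34.6%. CCACC and GGAGGA were more frequent in coding exon peaks, 22.97% against 18.4% and 10.6% against 8.37%. All 6 differences passed Fisher's exact test (largest adjusted p = 3.99e-05), which was added after seeing the data. Coding exon peaks were chosen to have coding summits, and only 95 reproducible summits met the same position rule. The test therefore cannot tell a trait of these peaks from one of coding sequence. Base composition differs between these classes, with a median GC content of 43.05% in coding exon windows, 38.4% in relaxed-only promoter and 37.7% in relaxed-only intron windows, and its part in these shares was not tested. At the coding positions 500 bp from the summits, some of which may lie under other peaks, E2F stood at 3.22%, GAGAGA at 8.50% and TGATAA at 12.8%. There CHR stood at 32.6%, CCACC at 20.6% and GGAGGA at 10.2%.

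Summits lay in slightly GC-richer coding sequence than the rest of the same gene. Over 3723 genes, coding bases within 75 bp of a summit had a median GC content of 45.3%, and the other coding bases of those genes 43.9%. The other bases include those in start windows and under reproducible peaks, where no summit of this class could lie. The median difference within a gene was 1.10 percentage points (quartiles −1.66 and 3.83). It was positive in 2273 genes and negative in 1449 (exact sign test, two-sided, p = 8.41e-42), which takes each gene once and both libraries together.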

How the data were processed

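ChIP-seq peak lists of 2 biological replicates were used, per the labels 1 group. Per the notes deposited with the files, a relaxed list per replicate, a pooled relaxed list and an IDR-thresholded list came from comparison with a control alignment (not analysed here). The authors deposited a signal value per peak (column 7, enrichment, comparable only within a list), a −log10 q-value and the peak positions with a summit offset. Which aligner and caller were run, and at what IDR cut-off, is not given in the sources used here. Lists in ce10 coordinates were not used, and 0 files were of unknown origin. Read depth is unknown; Wilson intervals cover counting error only.

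Ensembl release 115 (WBcel235) gave the gene models and the RefSeq genome of that assembly the sequence, after chromosome names and lengths were checked against ce11. Sequence from chromosome I is not printed. Relaxed-only summits were placed in start windows, coding, UTR, intron or intergenic sequence, in this order. Eligible coding sequence is coding sequence outside start windows. A gene counted as having a promoter peak when a reproducible summit lay in its window. Fisher's exact, Mantel-Haenszel, exact McNemar and exact sign tests used a threshold of 0.05, after Benjamini-Hochberg adjustment where several were run, and were tested on simulated data. Tests ran in scipy 1.17.1 and statsmodels 0.14.6, under Python 3.11.15 with pandas 2.3.3 and numpy 2.4.6.

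The members and lists were chosen with earlier results of these data known. Of the 20 gene lists, the chemoreceptor pattern was corrected to 1269 genes, and symbols without a match were removed, after a first look at the counts. Named genes are the transgene parts, the genes of the 15 strongest members, the 10 genes with most members, the leading gene of each list and those of the strongest members with a printed sequence. The genes shown with an E2F spelling (coq-6, T13B5.9, Y16B4A.2, egl-27) and hsp-1, hsp-6, hsp-60 and hsp-90 were chosen after their values were seen. Alternatives were other windows, positions, overlaps and motif windows, the 50% of the peaks with the highest signal and each replicate alone.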

Additional observations from a re-analysis of the deposited data

How the results depend on the processing

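No paired analysis was possible because the 2 replicates form 1 group. Of 86 alternative values of the main results, 62 kept their direction and side of the threshold or, where untested, stayed within the interval; the others follow, and the cause was not tested where none is given. Stronger peaks here are the 50% with the highest signal. The coding exon share of relaxed-only peaks (23.9%) became 21.5% with windows of 1000 bp upstream, 23.1% with starts of any biotype and 18.1% among stronger peaks, and ranged from 23.1 to 26.2% with one replicate left out. The share of genes with a coding exon peak (18.8%) became 16.97% with the 1000 bp windows and 10.6% with stronger peaks, a choice that holds fewer peaks, and ranged from 18.3 to 20.6% with one replicate left out. The replicate 1 overlap difference from promoter peaks (−7.79 points) and from intron peaks (−3.26) passed throughout but varied in size: −27.1 and −9.77 with stronger replicate peaks, −1.50 and −1.16 among stronger peaks. Within 4 bins of signal (Mantel-Haenszel chi-square test), the replicate 2 differences were −1.55 points (overlap) and −0.964 (summit within 50 bp, adjusted p = 0.219) against promoter peaks, and 3.16 and 1.68 (adjusted p = 0.0153) against intron peaks. Against intron peaks the replicate 2 overlap turned to −0.338 points at 50% reciprocal overlap and −0.263 with stronger replicate peaks, and the summit share to −1.15 among stronger peaks and −0.115 with windows of 250 bp either side; none of these passed. For motifs, E2F turned to −0.119 points with a position 1000 bp away, GATA to −0.0285 in windows of 50 bp, and GGAGGA to −0.314 and −0.542 in windows of 50 and 150 bp; none of these passed. By the exact McNemar test CHR was −0.998 points in windows of 150 bp (adjusted p = 0.608), −1.52 with a position 1000 bp away (0.574) and −3.02 among stronger peaks (0.334). The GC difference kept its sign and passed in 3 alternatives. Of 217 values for gene lists, single genes and the promoter ratio, 180 stayed within the Wilson interval or, for counts and the ratio, within 1.5 times, and 37 moved, 16 of these in the replicate 2 list alone. Unknown depth limits what a missing replicate 2 peak means.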
